A study of Mus musculus with 90 samples.

Results

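Mouse CT26 colorectal cancer cells grown with interferon-gamma (IFNγ) for 3 weeks were compared with CT26 cells grown without it for the same 3 weeks. The comparison takes 3 libraries in each group, chosen by their labelled line, duration, treatment and time after fresh IFNγ, and these 6 are among 90 libraries of the series. The series followed CT26 cells and YUMM2.1 melanoma cells through 1, 2 and 3 weeks of IFNγ, with and without a fresh dose of IFNγ before harvest, by 3′ digital gene expression, in which reads are taken from the 3′ ends of polyadenylated transcripts. It addressed how short and long exposure to IFNγ differ in tumour cells. The IFNγ group received 50 IU/mL throughout and no fresh dose before harvest, labelled as 0 h. The control group carried bovine serum albumin at 0 IU/mL in place of the cytokine. Both groups were the same line, with no allele altered, and all cells were replated at a fixed density before harvest. Samples were labelled as triplicates without stating whether these were separate cultures, so the p-values measure the spread between samples of the same group. For this comparison that spread was estimated over all CT26 groups of the series, not only over the compared groups. Each tumour type was represented by a single line.

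IFNγ binds the receptor chains Ifngr1 and Ifngr2, which carry the kinases Jak1 and Jak2. Signalling from the receptor acts on promoters through gamma-activated sites (GAS) and interferon-stimulated response elements (ISRE), and the latter are also bound by factors of the Irf family. The genes so induced include GTPases that attack intracellular pathogens, the proteasome subunits and transporters that supply peptides to MHC class I, antiviral RNA-binding proteins, and Cd274 (PD-L1), the ligand of the T cell checkpoint receptor PD-1.

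The IFNγ libraries were shallower than their controls. Total counts were 1080409, 773942 and 295157 in IFNγ replicates 1, 2 and 3, against 1318011, 1409042 and 2183005 in the controls, and the median of the 45 CT26 libraries was 1318011. IFNγ replicate 3 held 22.4% of that median. The IFNγ libraries had 9968 to 13110 detected genes (controls 13180 to 14500), 7.08 to 7.43% mitochondrial counts (5.79 to 6.51%) and 13.9 to 16.1% of counts from ribosomal protein genes (15.8 to 18.0%). Levels are given as CPM, the count of a gene relative to its library's total after scaling by the trimmed mean of M values (TMM). Of 18 leukocyte markers, 12 were at 0 in all 6 libraries, and their summed level was 6.69 to 7.02 CPM in the IFNγ group and 4.43 to 5.41 CPM in the controls. The fibroblast markers summed to 56.9 to 143 CPM and 49.1 to 76.8 CPM, and of the endothelial markers Pecam1 alone was well above 0 while Cdh5, Kdr, Tek, Emcn and Erg were at 0. Of 12 colon epithelium markers, 9 were at 0 in all 6 libraries (Cdx1, Cdx2, Vil1, Epcam, Cdh1, Krt8, Krt19, Lgals4 and Muc2), Krt20 being the highest of the rest, so that the labelled tissue of origin was barely visible in these markers. The part of depth in the results below was not tested beyond leaving libraries out. In bulk RNA, fewer responding cells and less RNA per cell cannot be told apart.

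Of 8516 genes tested, 616 passed an adjusted p of 0.05 in the quasi-likelihood test of edgeR (7.23%), 293 of them higher after IFNγ (3.44%) and 323 lower (3.79%). The sizes of the changes differed by direction. The genes called higher had a median log2 fold change of 1.72 at a median level of 20.9 CPM, and 248 of 293 changed by at least 1 on the log2 scale. The genes called lower had a median log2 fold change of −0.55 at a median level of 326 CPM, and 44 of 323 reached a log2 change of 1. The libraries of both groups did not overlap for 258 of the 293 and 309 of the 323, against 11.9% and 12.1% of all tested genes. The median log2 fold change of all tested genes was 0.02. Without IFNγ replicate 2 the number called was 259 (135 higher, 124 lower), and without control replicate 3 it was 397 (186 higher, 211 lower). The balance of directions depended on the scaling: with library totals alone the same test called 461 genes higher and 120 lower, so that 79.4% of calls were higher in place of 47.6%, and the median of all genes was 0.22. It also depended on the groups fitted. With only the 2 compared groups, 204 of 6267 tested genes were called higher and 78 lower. With the 4 groups of 3 weeks, 204 of 6953 were called higher and 145 lower.

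**Figure D1:**
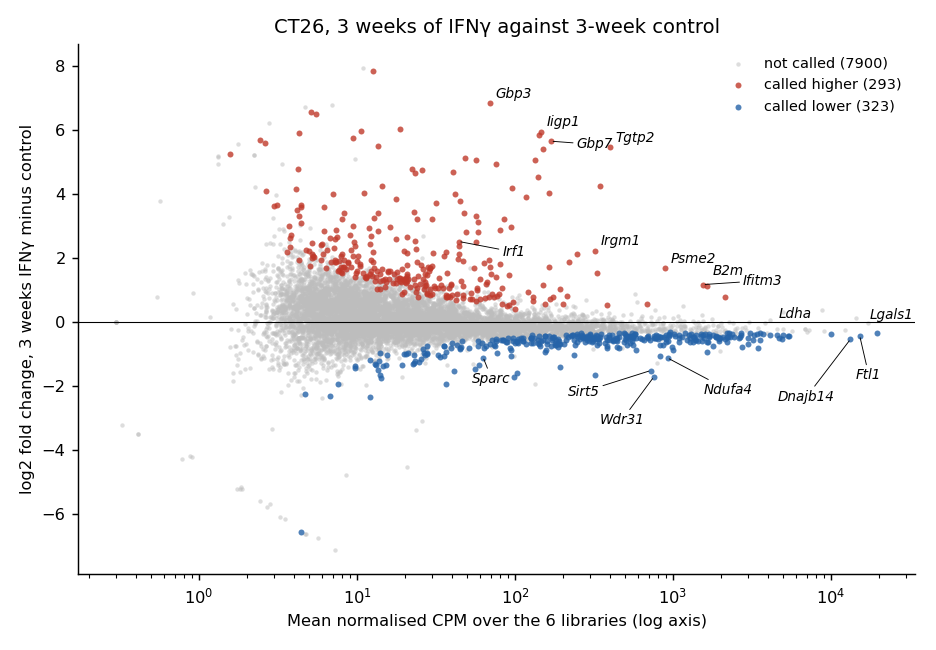
Each point is 1 of the 8516 tested genes, with its mean CPM over the 6 libraries on a log axis and its log2 fold change, 3 weeks of IFNγ minus control. The 293 genes called higher (red) reached log2 fold changes of up to 7.87 at levels mostly under 100 CPM, and the 323 called lower (blue) formed a band just below 0 at high levels.

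The transcription factors Stat2, Irf1, Irf7 and Batf2 were called higher, while neither receptor chain passed the test. Stat2, which binds ISREs together with Irf9, stood at 29.0, 37.2 and 33.4 CPM after IFNγ and at 0.818, 4.43 and 1.47 CPM in the controls, with no overlap (log2 fold change 3.86 ± 0.49 SE, adjusted p = 1.29e-07). Irf1, an activator of ISRE-bearing genes, was at 59.7, 93.6 and 73.6 CPM against 14.7, 10.3 and 13.8 CPM (2.53 ± 0.22, adjusted p = 3.47e-12). Irf7, the master factor of type I interferon genes, rose by a log2 fold change of 4.76 ± 0.37 from a control level of at most 2.46 CPM. Batf2, a partner of Irf1, stood at 4.51 to 12.3 CPM with 3 counts in all in its controls, a ratio of pooled levels of 13.2 with a 95% counting interval of 3.92 to 69.5 (exact binomial). It was called by edgeR (adjusted p = 0.00204), but not without IFNγ replicate 1 (adjusted p = 0.075). Irf9, the DNA-binding partner of Stat2, was at 154, 140 and 120 CPM against 143, 126 and 119 CPM and did not pass the test (0.13 ± 0.14, adjusted p = 0.625). None of Ifngr1 (0.57), Ifngr2 (1.67), Jak1 (0.52), Jak2 (0.32) and Stat3 (1.58) passed, and for Jak2 the sign turned without IFNγ replicate 2 (−0.09). Of the feedback inhibitors, 1 of 7 tested was called, Usp18, which removes ISG15 and blocks the type I interferon receptor (3.81 ± 0.29), while Socs1 was at 5.27, 3.38 and 10.0 CPM against 0.818, 0.738 and 2.95 CPM (1.62 ± 0.82, adjusted p = 0.237).

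The promoters of the genes called higher are shown here for 7 genes of different roles, to set the letters of the pathway's binding motifs beside the values: a transcription factor, a proteasome subunit, a pair of guanylate-binding proteins, a pair of immunity-related GTPases and a ubiquitin-like protein. Each window is the 250 bases before the transcription start, 5′ to 3′ on the gene's strand, from RefSeq on GRCm38.p6, and capitals mark matches to GAAA and TTTC pairs with NN between them (ISRE: GAAA NN GAAA on the printed strand, TTTC NN TTTC where it lies on the other) and to TTCNNNGAA (GAS, its own reverse complement).
Irf1 (chr11:53769764-53770013, plus strand): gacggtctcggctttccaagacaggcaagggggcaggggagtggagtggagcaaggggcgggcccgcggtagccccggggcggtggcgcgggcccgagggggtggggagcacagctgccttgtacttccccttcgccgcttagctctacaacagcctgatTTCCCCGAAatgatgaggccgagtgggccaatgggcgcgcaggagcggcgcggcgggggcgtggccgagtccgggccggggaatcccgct
Psmb8 (chr17:34197945-34198194, plus strand): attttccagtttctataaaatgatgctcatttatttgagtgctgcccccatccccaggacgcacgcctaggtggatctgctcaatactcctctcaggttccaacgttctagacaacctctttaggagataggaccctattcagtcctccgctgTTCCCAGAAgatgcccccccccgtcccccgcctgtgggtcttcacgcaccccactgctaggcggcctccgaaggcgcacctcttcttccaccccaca
Gbp2 (chr3:142620413-142620662, plus strand): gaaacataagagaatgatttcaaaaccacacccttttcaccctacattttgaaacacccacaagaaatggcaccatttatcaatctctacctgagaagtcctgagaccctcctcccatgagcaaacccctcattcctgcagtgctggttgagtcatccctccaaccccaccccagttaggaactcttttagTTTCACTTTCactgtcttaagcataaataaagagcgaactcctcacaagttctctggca
Gbp7 (chr3:142530086-142530335, plus strand): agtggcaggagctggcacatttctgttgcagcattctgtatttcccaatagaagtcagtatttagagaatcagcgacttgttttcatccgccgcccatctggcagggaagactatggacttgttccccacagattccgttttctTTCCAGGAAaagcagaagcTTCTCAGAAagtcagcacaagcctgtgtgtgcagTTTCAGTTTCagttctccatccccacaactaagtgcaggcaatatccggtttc
Igtp (chr11:58199306-58199555, plus strand): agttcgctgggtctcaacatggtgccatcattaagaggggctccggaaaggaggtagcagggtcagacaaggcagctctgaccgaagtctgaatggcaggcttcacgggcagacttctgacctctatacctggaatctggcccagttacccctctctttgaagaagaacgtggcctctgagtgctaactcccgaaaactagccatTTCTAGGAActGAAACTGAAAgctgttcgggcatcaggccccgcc
Irgm2 (chr11:58214727-58214976, plus strand): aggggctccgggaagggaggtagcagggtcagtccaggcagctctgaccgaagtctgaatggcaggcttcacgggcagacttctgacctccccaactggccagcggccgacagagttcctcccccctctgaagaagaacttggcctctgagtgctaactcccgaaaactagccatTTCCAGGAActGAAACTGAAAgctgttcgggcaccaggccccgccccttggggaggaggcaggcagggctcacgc
Isg15 (chr4:156200819-156201068, minus strand): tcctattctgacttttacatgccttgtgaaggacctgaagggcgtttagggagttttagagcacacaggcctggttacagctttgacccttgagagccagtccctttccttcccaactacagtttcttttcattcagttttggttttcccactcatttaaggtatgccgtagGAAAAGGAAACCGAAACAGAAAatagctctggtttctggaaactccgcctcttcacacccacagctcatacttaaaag
Irf1 and Psmb8 held a GAS match starting at −90 and −97 from the start, and no ISRE match, and a further RefSeq window of Irf1 with neither match is not printed. Gbp2 held a single ISRE match at −59, Gbp7 an ISRE match at −53 behind GAS matches at −106 and −87, and Isg15 overlapping ISRE matches at −78, −72 and −66. In Igtp and Irgm2 a GAS match began 11 bases before an ISRE match, which started at −34 and −64. An ISRE match was present in 2.98% of all promoter windows, in 2.87% of those of tested genes, in 16.2% of those of genes called higher (46 of 284 windows, of 229 genes) and in 3.79% of those of genes called lower (10 of 264 windows, of 217 genes). A GAS match was present in 7.02%, 5.64%, 7.04% and 9.09% of the same sets. Among the 50 genes called higher with the smallest p, 38.3% of windows held an ISRE match and 19.1% a GAS match. Each of the 7 printed genes held a match, unlike most windows of genes called higher, so the printed windows are not typical of that set. These are counts of letters, and binding was not measured.

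The GTPases of intracellular defence had the highest medians of all lists. Of 10 guanylate-binding proteins tested, 8 were called higher and none lower, with a median log2 fold change of 5.76, or 5.10 with the 4 members whose controls were at 0 set at their bounds. Gbp7 was at 346, 329 and 324 CPM after IFNγ and at 8.18, 4.43 and 6.88 CPM in the controls (5.66 ± 0.22, adjusted p = 9.21e-24), the smallest p of all genes. Gbp2 was at 227, 255 and 298 CPM against 7.37, 7.38 and 7.37 CPM (5.09 ± 0.22), and Gbp3 at 154, 108 and 154 CPM against 0.818, 0.738 and 1.47 CPM (6.85 ± 0.28). These 3 genes went from at most 8.18 CPM in any control to over 100 CPM in every IFNγ library, with no overlap. Gbp9 was at 17.6, 24.8 and 33.4 CPM with no count in any control, at least 34.4-fold higher against a floor of 3 counts over the control group, and Gbp5 was at least 7.93-fold higher on the same floor. Members of this family share sequence, and Gbp6 and Gbp10, which did not pass, share 93.5% and 100% of their last bases with other genes. All 7 immunity-related GTPases tested were called higher (median 4.27). Iigp1, which coats the vacuoles of parasites, was at 318, 272 and 271 CPM against 4.91, 3.69 and 4.91 CPM (5.96 ± 0.27), Irgm1, a regulator of the family, at 550, 494 and 542 CPM against 119, 106 and 112 CPM (2.24 ± 0.12), and Tgtp1 and Tgtp2, whose reads cannot be told apart, together at 1597, 1398 and 1338 CPM against 59.7, 47.3 and 50.1 CPM, a ratio of 27.6.

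**Figure D2:**
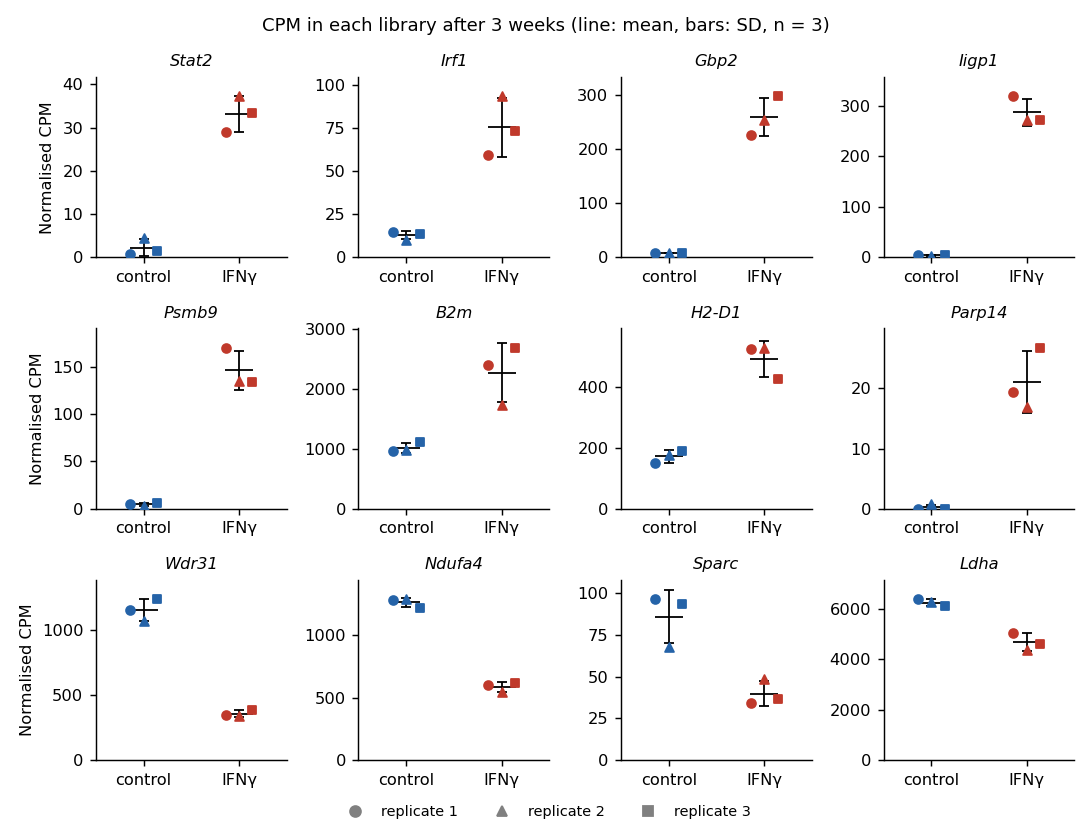
CPM of 12 genes in each of the 3 control (blue) and 3 IFNγ libraries (red) after 3 weeks, with the mean as a line, the SD as bars and replicates 1 to 3 as circles, triangles and squares, each panel on its own axis from 0. Groups do not overlap in any panel, which the rule for naming the largest rises and falls required of some of these genes. Gbp2 lies at 227 to 298 CPM against 7.37 to 7.38 CPM, and Wdr31 at 337 to 385 CPM against 1068 to 1236 CPM.

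Genes of each step of antigen presentation by MHC class I were called higher. In the proteasome, 5 of 6 tested members were called higher (median 1.82). Psmb9 and Psmb8, catalytic subunits of the immunoproteasome, rose by 4.94 ± 0.27 and 4.01 ± 0.32, Psmb9 standing at 170, 135 and 134 CPM against 4.91, 2.95 and 5.90 CPM. Psmb10, the remaining catalytic subunit, started from 90.8 to 92.9 CPM and rose by 1.90 ± 0.12. Psme2, a subunit of the PA28 activator, was at 1576, 1277 and 1207 CPM against 409, 438 and 417 CPM (1.69 ± 0.11), with 75.7% of its 3′ sequence shared with other annotated genes. Of the 8 genes of peptide transport and loading, 4 were called: the transporter chains Tap1 (2.97 ± 0.52) and Tap2 (2.59 ± 0.42), the loading factor Tapbp (2.51 ± 0.26) and the trimming peptidase Erap1 (2.17 ± 0.32). The general chaperones of that list did not pass, Canx at 0.57 ± 0.19 (adjusted p = 0.0562) and Calr at 0.25 ± 0.17 (adjusted p = 0.422).

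Of 10 genes of the MHC class I chains and Nlrc5 tested, 7 were called higher and none lower, with a list median of 1.5 against 1.37 for peptide transport and loading. B2m, the light chain, was at 2390, 1734 and 2685 CPM against 962, 977 and 1108 CPM (1.15 ± 0.13, adjusted p = 1.14e-08). The classical heavy chain H2-D1 was at 525, 529 and 425 CPM against 149, 176 and 190 CPM (1.53 ± 0.13), H2-K1 rose by 1.48 ± 0.21, and the nonclassical H2-T22, from a mean control level of 10.4 CPM, by 3.33 ± 0.20. CT26 derives from BALB/c mice, whose H2 alleles differ from the reference genome, so the H2 counts are uncertain. H2-D1 also carries the repeated B2 sequence described below. Nlrc5, the transactivator of these genes, was at 13.2, 10.1 and 0 CPM against 0.818, 0 and 1.47 CPM and was called (3.34 ± 0.73, adjusted p = 0.00216) although replicate 3, the shallow library, overlapped the controls. With replicate number 1 or 2 left out of every group it did not pass (2.86, adjusted p = 0.168, and 2.84, adjusted p = 0.0892). Of the MHC class II pathway 1 of 9 genes was abundant enough to test, and it was not called. Cd274 was at 13.2, 7.89 and 3.34 CPM against 0, 1.48 and 0.491 CPM without overlap (adjusted p = 0.00169). Its controls held 3 counts in all, which puts the ratio of pooled levels at 15.2 with a 95% counting interval of 4.59 to 79.1 (exact binomial, counting error only). With replicate number 1 left out of every group it did not pass (2.72, adjusted p = 0.148). It was the only one of 7 tested checkpoint and lymphocyte ligands to pass.

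The interferon-induced PARPs, which attach ADP-ribose to proteins or bind viral RNA, were all called higher (7 of 7, with Dtx3l, median 2.85). Parp14, a mono-ADP-ribosyltransferase on chromosome 16 (35832874 to 35871544 on GRCm38), was at 19.3, 16.9 and 26.8 CPM after IFNγ and at 0, 0.738 and 0 CPM in the controls, with no overlap and 1 control count in all. The ratio of pooled levels was 89.3 (95% counting interval 15.2 to 3603), and edgeR gave an adjusted p of 1.6e-06. Parp9, which pairs with the ubiquitin ligase Dtx3l, was at 36.9, 39.5 and 50.2 CPM against 2.46, 2.95 and 4.91 CPM (3.44 ± 0.38). Parp11 rose by 2.85 ± 0.43 and Zc3hav1, the zinc-finger antiviral protein, by 1.80 ± 0.30.

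Antiviral effectors rose as a group. Of 21 IFIT, OAS and related genes tested, 17 were called higher and 1 lower (median 2.81). Ifitm3, a membrane protein that blocks viral entry, was the most abundant of them at 2274, 1897 and 2314 CPM against 913, 881 and 1057 CPM (1.18 ± 0.11, adjusted p = 4.1e-11). Ifit1, which binds foreign RNA caps, was at 93.1, 85.7 and 83.6 CPM against 9.002, 8.86 and 6.88 CPM (3.43 ± 0.29), and Ifit3 with its near copy Ifit3b gave a ratio of 24.98. The 1 lower member was Samhd1, a nucleotide hydrolase (−0.47), which carries the repeated sequence described below. All 5 genes of ISG15 conjugation were called (median 2.36), Isg15, the ubiquitin-like modifier, at 28.1, 21.4 and 20.1 CPM against 0, 5.17 and 1.97 CPM (3.27 ± 0.48) and its conjugating enzyme Ube2l6 at 2.12 ± 0.15. Of 9 nucleic acid sensors 7 were called higher (median 1.98), among them Zbp1, a sensor of Z-form nucleic acid, at 298, 255 and 258 CPM against 5.73, 16.2 and 12.3 CPM (4.53 ± 0.20) and Ddx58, which encodes RIG-I (2.30 ± 0.32). The cell surface protein Ly6a (Sca-1) rose from 14.7, 22.2 and 18.2 CPM to 316, 249 and 358 CPM (4.03 ± 0.21).

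**Figure D3:**
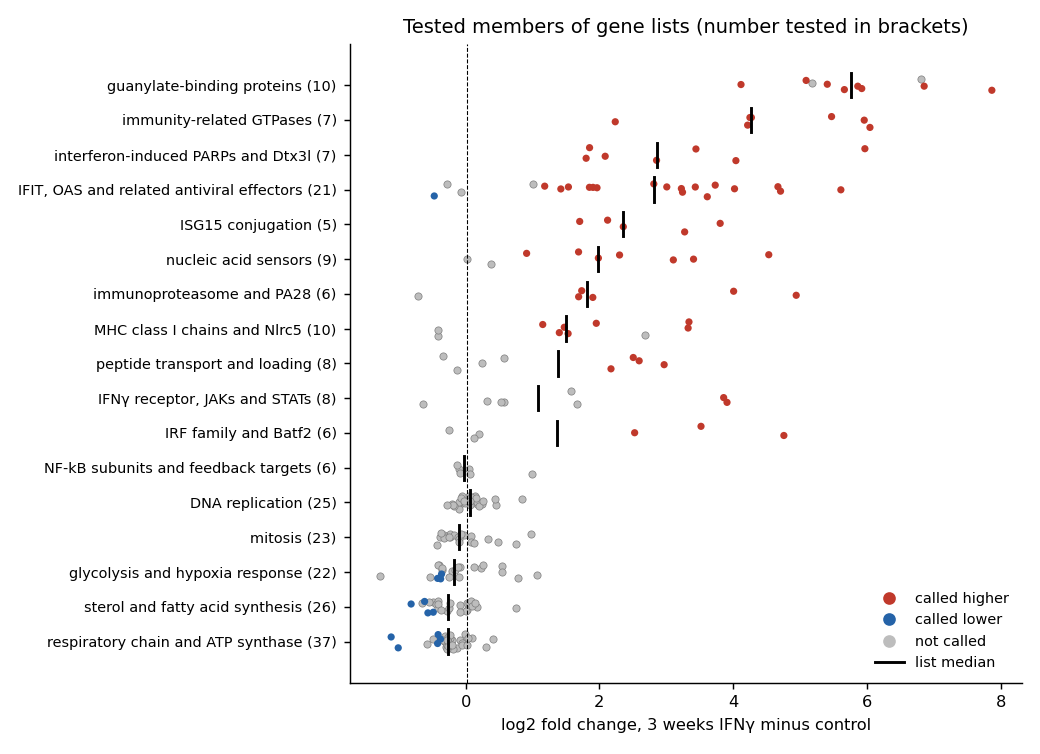
Points are the log2 fold changes, 3 weeks of IFNγ minus control, of the tested members of 17 gene lists, with called genes coloured, list medians as black bars and the number tested in brackets. Interferon lists such as the guanylate-binding proteins (median 5.76) lie to the right of 0, and the lists of DNA replication (0.07) and mitosis (−0.10) scatter around it with no called member.

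Over all interferon lists together, 128 of 193 members were abundant enough to test, and 77 were called higher and 1 lower, with a median log2 fold change of 1.83. Wars, the tryptophanyl-tRNA synthetase that IFNγ induces, rose by 0.65 ± 0.13 (107, 133 and 117 CPM against 67.1, 82.7 and 76.7 CPM), and it was the 1 called of 3 tested IFNγ-driven metabolic enzymes. The complement protease C1s1 rose by 2.50 ± 0.50 and Casp1, which activates interleukin-1 beta, by 1.35 ± 0.31, although without IFNγ replicate 2 Casp1 did not pass (1.196, adjusted p = 0.064). Csf1, the macrophage growth factor, was at 45.7, 64.3 and 26.8 CPM against 10.6, 14.8 and 16.7 CPM (1.76 ± 0.42) and also did not pass without that library (1.46, adjusted p = 0.11). Other risers, chosen after their values were seen from those that passed without each single library and under the other scalings, were Apol9a, an apolipoprotein L family member, at 183, 169 and 154 CPM against 16.4, 22.2 and 25.1 CPM, the secreted Lgals3bp at 132, 116 and 127 CPM against 30.3, 40.6 and 34.9 CPM, the interferon-induced Nmi at 87.8, 69.9 and 63.5 CPM against 13.1, 13.3 and 16.2 CPM, and Nampt, the enzyme of NAD salvage, at 64.1, 54.1 and 43.5 CPM against 25.4, 21.4 and 28.0 CPM.

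The 216 genes called higher that were on none of the interferon lists differed from the 77 on those lists in which library stood highest. IFNγ replicate 2 was the highest of the 3 for 57.4% of the 216, against 32.5% of the 77 and 36.0% of genes not called. Without that library 61 of the 216 were still called, against 69 of the 77. The 216 had a median log2 fold change of 1.51 at 3 weeks and 0.13 after 24 h of IFNγ in cells not exposed before. The 77 had medians of 3.23 and 3.01. The lists are not complete, and interferon-induced genes such as Nmi, Ifi47 and Samd9l are among the 216. At 24 h 48 of the 216 were also called higher, against 70 of the 77. The longest transcripts of the 216 had a median of 4524 nucleotides, against 3121 for the 77 and 3226 for genes not called. Kpnb1, the nuclear import receptor, was at 68.5, 187 and 60.2 CPM against 40.9, 30.3 and 30.96 CPM (1.72 ± 0.33, adjusted p = 0.000403), and without replicate 2 it was at 0.95 and did not pass (adjusted p = 0.18). Lamp1, a lysosomal membrane protein, was at 66.7, 136 and 50.2 CPM against 37.6, 39.1 and 29.98 CPM (1.34 ± 0.35) and at 0.79 without replicate 2 (adjusted p = 0.37) or 1.21 without control replicate 3 (adjusted p = 0.067). The mRNA decay factor Zfp36l2 (1.89 ± 0.44) was at 1.37 without replicate 2 and did not pass (adjusted p = 0.19).

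Proliferation, stress and inflammatory lists gave few calls or none. No gene was called of 25 for DNA replication (median 0.07), 23 for mitosis (−0.10), 13 for G1 cyclins, CDK inhibitors and p53 targets, 24 for ER stress and the ATF4 response (0.16), 6 NF-kB subunits and feedback targets (−0.02), 10 AP-1 and EGR factors or 13 TGF-beta genes. With library totals as the only scaling, 1 gene each of DNA replication and mitosis and 2 of ER stress were called higher. DESeq2 called 1 mitosis gene higher and 1 of ER stress lower. Cdkn1a, the p21 cell cycle inhibitor, was at 131, 161 and 167 CPM against 180, 154 and 167 CPM (−0.15 ± 0.12, adjusted p = 0.498) and Myc at 58.0, 44.0 and 33.4 CPM against 39.3, 36.9 and 38.3 CPM (0.33 ± 0.21, adjusted p = 0.367), with overlap in both. Single members of other lists rose: the chaperone Hsph1 (1.03 ± 0.26, and 0.87 with adjusted p = 0.12 without IFNγ replicate 2), the metallothionein Mt2 (0.58 ± 0.14, and 0.38 with adjusted p = 0.094 without IFNγ replicate 3) and mt-Co1, a mitochondrial cytochrome oxidase subunit, at 2733, 3273 and 2134 CPM against 1606, 1619 and 1463 CPM (0.80 ± 0.15), whose sequence has copies in the nuclear genome. A call that is absent here does not show an equal level, since 46.3% of genes changed by 1 on the log2 scale were recovered from simulated counts of this comparison, and 76.4% of those above the median level. Those counts were drawn from a single mean profile of the CT26 libraries without shifts of whole libraries, so recovery in the data may differ.

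The falls with the smallest p were those of Wdr31, Sirt5 and Ndufa4. Wdr31, a WD-repeat gene on chromosome 4 (62448653 to 62470896, minus strand), was at 342, 337 and 385 CPM after IFNγ and at 1152, 1068 and 1236 CPM in the controls (−1.71 ± 0.14, adjusted p = 9.18e-13). Sirt5, a mitochondrial lysine desuccinylase, was at 364, 291 and 498 CPM against 962, 983 and 1227 CPM (−1.51 ± 0.14, adjusted p = 3.34e-11). Ndufa4, a subunit of cytochrome c oxidase on chromosome 6 (11900292 to 11907497, minus strand), was at 602, 542 and 615 CPM against 1281, 1292 and 1221 CPM (−1.11 ± 0.11, adjusted p = 6.39e-11). None of the 3 overlapped between groups. The predicted genes Gm9864 (−1.66 ± 0.17), Gm48368 (−1.72 ± 0.18), Gm10845 (−1.40 ± 0.15) and Gm10040 (−1.57 ± 0.24) fell alongside, as did the small nucleolar RNA hosts Snhg8 (−1.33 ± 0.23) and Snhg14 (−1.93 ± 0.52, and −1.95 with adjusted p = 0.083 without IFNγ replicate 2).

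Wdr31 and Sirt5 share a stretch of sequence with most of those predicted genes, and many other fallers carry a repeat. These 25-base words, read on the transcript strand of the GENCODE M21 transcripts, were chosen among the genes called lower, so their counts describe and do not test.
Wdr31 word: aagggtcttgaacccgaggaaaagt
B2 word: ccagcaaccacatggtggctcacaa
The Wdr31 word is held by 10 annotated genes. Of the 9 tested, 8 were called lower, Wdr31, Sirt5, Gm9864, Gm10040, Gm48368 and Gm10845 among them, with a median log2 fold change of −1.51, and together they took 0.122 to 0.151% of counts after IFNγ and 0.307 to 0.366% in the controls. In the longest transcript of Sirt5 98.6% of the last bases are shared with other annotated genes, and in that of Wdr31 2.43%. How reads were divided among the holders was not tested. The B2 word lies within B2, a short interspersed element that is repeated through the mouse genome, and is held in sense by 484 of 55450 annotated genes (0.873%). Of 429 tested holders, 115 were called lower (26.8%) and 2 higher, with a median of −0.30, and they took 14.7 to 15.2% of all counts after IFNγ and 16.2 to 18.2% in the controls. Among genes above 100 CPM, 105 of 199 holders were called lower (52.8%, median −0.41), against 136 of 1127 genes without either word (12.1%, median −0.18). Levels above 100 CPM were not matched between these sets. In the holders called lower the word lay a median of 248 bases from the transcript end, and 57.4% had it within 400 bases, values close to those of the 312 holders not called (235.5 bases and 57.7%).

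**Figure D4:**
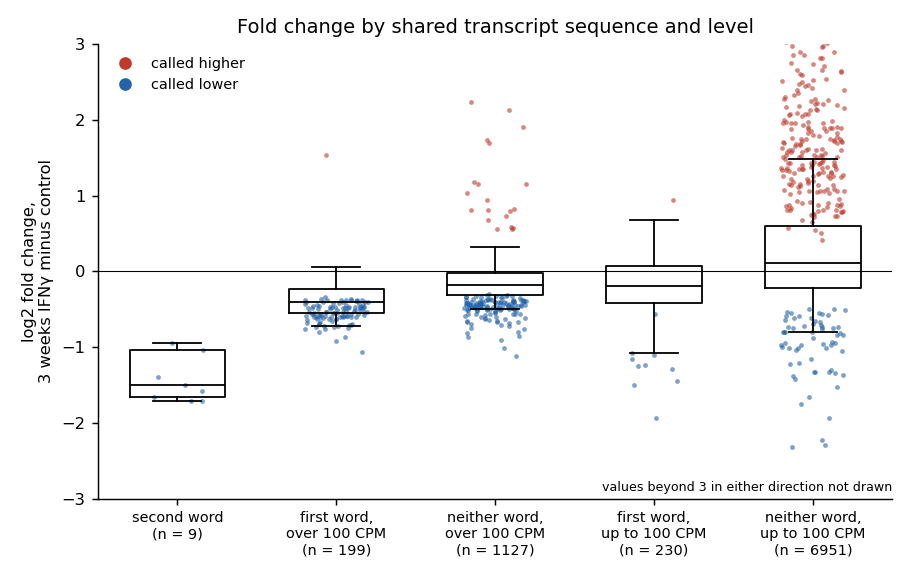
Boxes give the median, quartiles and 5th to 95th percentiles of the log2 fold change, 3 weeks of IFNγ minus control, for tested genes split by the words they hold (first word, B2; second word, Wdr31) and by mean level, with called genes as points. Holders of the Wdr31 word (n = 9) centre on −1.51 and B2 word holders over 100 CPM (n = 199) on −0.41, below genes over 100 CPM with neither word (n = 1127) at −0.18. Levels above 100 CPM were not matched.

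Several B2 word holders are genes known from other tissues. Sag, the arrestin of rod photoreceptors, was counted at 751, 666 and 776 CPM after IFNγ and at 1263, 1186 and 1262 CPM in the controls (−0.76 ± 0.10, adjusted p = 1.31e-07). The olfactory receptor gene Olfr889 was counted at 1094, 969 and 973 CPM against 1604, 1579 and 1448 CPM (−0.60 ± 0.10), the vomeronasal receptor gene Vmn2r3 fell by 0.54 on the log2 scale, and Cxcr2, a chemokine receptor of neutrophils, fell by 0.47. Sag, Vmn2r3 and Cxcr2 were chosen after their values were seen. Dnajb14, the chaperone gene with the highest count among holders, was at 10985, 9826 and 11725 CPM against 16420, 15917 and 14646 CPM (−0.53 ± 0.09, adjusted p = 8.6e-05). The glucose transporter Slc2a3 (736, 679 and 719 CPM against 1373, 1304 and 1207 CPM, −0.86 ± 0.12), the matrix protein Sparc (34.2, 48.5 and 36.8 CPM against 96.6, 67.9 and 93.4 CPM, −1.10 ± 0.20), the lysosomal protease Ctsl (−0.43 ± 0.10, but −0.12 with adjusted p = 0.609 against the 0-week control) and the collagen crosslinker Loxl2 (−0.51 ± 0.12, and −0.45 with adjusted p = 0.051 without IFNγ replicate 2) hold it too. How many of the reads counted for these genes came from B2 copies elsewhere was not tested. Without the genes that share 3′ sequence, removed before the fit, 475 genes were called, 275 higher and 200 lower.

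Calls in each direction were spread unevenly over levels. Among genes under 10 CPM, 75 were called higher and 6 lower with a median log2 fold change of 0.34, and among the 549 over 300 CPM 10 were called higher and 169 lower (30.8%) with a median of −0.27. With library totals these medians were 0.54 and −0.07. Over 300 CPM, the median was 0.01 after 24 h of IFNγ, −0.10 at 1 week and −0.09 at 2 weeks in the same line, and −0.16 at 3 weeks in YUMM2.1. IFNγ replicate 2 was the lowest of its group for 65.6% of the genes called lower, against 30.7% of those not called. Of the 323, 100 stayed called with each of the 6 libraries left out in turn, 120 under all 3 other scalings, and 88 under both, of which 59 hold one of the words. For the 293 higher genes these counts were 112, 272 and 112.

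Among the 29 that passed all of those and hold neither word were genes of energy and lipid metabolism. Of all tested genes, 9.85% at 100 to 300 CPM were called lower (median −0.16), and 30.8% over 300 CPM (−0.27). Whether the lists below exceed genes of like level was not tested. Ldha, lactate dehydrogenase, was at 5050, 4347 and 4622 CPM after IFNγ and at 6391, 6252 and 6096 CPM in the controls, without overlap (−0.42 ± 0.10, adjusted p = 0.00444), and the glycolytic enolase Eno1 fell by 0.37 on the log2 scale (SE 0.09), though most of its 3′ sequence is shared with other annotated genes. Pkm, pyruvate kinase, was also called (−0.36 ± 0.09), but not without IFNγ replicate 2 (−0.32, adjusted p = 0.064) or with library totals (−0.17, adjusted p = 0.088). In all 3 of 22 tested genes of glycolysis and the hypoxia response were called lower and none higher (median −0.18, and 0.02 with library totals). Pdk1 (−1.28) and Vegfa (1.06) were not called. Ldha and Eno1 also lost the call when only the 2 compared groups were fitted (−0.36, adjusted p = 0.1, and −0.31, adjusted p = 0.137) and with replicate number 1 or 2 left out of every group (adjusted p of 0.0634 to 0.11). Fdps, farnesyl diphosphate synthase, was at 329, 293 and 385 CPM against 502, 464 and 772 CPM (−0.81 ± 0.17, adjusted p = 0.000969), and Msmo1, a sterol methyl oxidase, at 249, 203 and 201 CPM against 325, 332 and 353 CPM (−0.61 ± 0.13, adjusted p = 0.001). Against the 0-week control neither passed (−0.44, adjusted p = 0.12, and −0.31, adjusted p = 0.163). With Ebp (−0.48) and Sc5d (−0.56), 4 of 26 genes of sterol and fatty acid synthesis were called lower (median −0.26, and −0.05 with library totals). Ebp and Sc5d lost the call with library totals (−0.28 and −0.36) and without IFNγ replicate 2 (−0.45, adjusted p = 0.12, and −0.47, adjusted p = 0.29), as well as without IFNγ replicate 3 (−0.44 and −0.54), control replicate 1 (−0.45 and −0.58) or control replicate 3 (−0.45 and −0.61), and Sc5d also without control replicate 2 (−0.51).

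The next lists too stand beside 9.85% called lower of all tested genes at 100 to 300 CPM and 30.8% over 300 CPM. Of 37 genes of the respiratory chain and ATP synthase, 5 were called lower and none higher (median −0.26, and −0.07 with library totals, which called 2 lower). Beside Ndufa4 these were Atp5c1, the gamma subunit of the ATP synthase, at 448, 406 and 455 CPM against 556, 591 and 596 CPM (−0.42 ± 0.09, adjusted p = 0.00305), the complex III subunit Uqcrb (−0.41), Atp5g1 (−0.38 ± 0.10), a B2 word holder, and Atp5d, which overlapped between groups at 149, 107 and 241 CPM against 257, 227 and 435 CPM. Atp5c1 lost the call when only the 2 compared groups were fitted (−0.35, adjusted p = 0.0894) and with replicate number 1 (adjusted p = 0.0652) or 2 (adjusted p = 0.153) left out of every group. Atp5d lost the call without IFNγ replicate 1 (−0.98, adjusted p = 0.065), IFNγ replicate 2 (−0.78, adjusted p = 0.22) or control replicate 3 (−0.66, adjusted p = 0.21), and Atp5g1 without IFNγ replicate 2 (−0.35, adjusted p = 0.088) or control replicate 1 (−0.36, adjusted p = 0.058). Of 78 ribosomal protein genes, a list added after the values were seen, 30 were called lower (38.5%) and none higher, with a median of −0.36. Of the 78, 76 lay over 300 CPM, where 139 of the 473 other genes were called lower (29.4%, median −0.25). With library totals the median was −0.18 and 4 were called, and many of these genes share reads with their pseudogenes. Of the 20 genes of ribosome biogenesis 1 was called, Wdr12, a B2 word holder (−0.59 ± 0.11).

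The ferritin chains Ftl1 (12631, 12355 and 13969 CPM against 16601, 16050 and 19591 CPM, −0.42 ± 0.11) and Fth1 (4119, 3087 and 4605 CPM against 5127, 4740 and 5542 CPM, −0.39 ± 0.12) were called, but Ftl1 did not pass without control replicate 3 (−0.33, adjusted p = 0.089) or against the 0-week control (−0.05, adjusted p = 0.901). Fth1 did not pass with library totals (−0.21, adjusted p = 0.217) or RLE factors (−0.35, adjusted p = 0.0602), against the 0-week control (−0.33, adjusted p = 0.112), or without IFNγ replicate 2 (−0.26, adjusted p = 0.34), IFNγ replicate 1 (−0.43), control replicate 1 (−0.39) or control replicate 3 (−0.33, adjusted p = 0.17). The most abundant faller was Lgals1, galectin-1, at 18196, 15310 and 18223 CPM against 22704, 21355 and 21326 CPM (−0.34 ± 0.10, adjusted p = 0.0204), which lost the call with library totals (−0.15, adjusted p = 0.095) and without IFNγ replicate 2 (−0.28, adjusted p = 0.14) or control replicate 1 (−0.31, adjusted p = 0.085). S100a4, a calcium-binding protein of motile cells, was at 410, 371 and 475 CPM against 678, 661 and 909 CPM (−0.86 ± 0.14, adjusted p = 1.91e-05), with 56.8% of its last bases shared. Of 12 mesenchymal and stemness factors, S100a4 fell while the hyaluronan receptor Cd44 (0.72 ± 0.21) and the homeobox gene Prrx1 (0.90 ± 0.26) were called higher, neither of them without IFNγ replicate 2 (0.58, adjusted p = 0.27, and 0.40, adjusted p = 0.65). Cd44 also missed without control replicate 2 (0.69) or 3 (0.70), and Prrx1 without control replicate 1 (0.83) or 2 (0.87). Dtymk, the kinase of thymidylate, was at 78.2, 57.5 and 66.9 CPM against 110, 122 and 122 CPM (−0.80 ± 0.16, adjusted p = 0.001), and the annexin Anxa2 fell by 0.45 on the log2 scale. Dtymk and Anxa2 were chosen after their values were seen.

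The same test in CT26 cells given IFNγ for 24 h without earlier exposure called 174 genes (2.04%), 151 higher (1.77%) and 23 lower (0.27%). These libraries share no sample with the 3-week comparison. IFNγ replicates 1 and 2 of 24 h were shallow too, at 519097 and 618598 counts, and the part of depth was not tested. Of the 293 genes higher at 3 weeks, 118 were also higher at 24 h (40.3%, and 78.2% of the 151), and of the 323 lower genes 14 were also lower (4.33%, and 60.9% of the 23). Some interferon genes had close estimates at both times: Irf1 2.53 ± 0.22 at 3 weeks and 2.31 ± 0.27 at 24 h, Gbp7 5.66 ± 0.22 and 5.68 ± 0.24, and Psmb9 4.94 ± 0.27 and 5.04 ± 0.29. Others had estimates further apart, such as Zbp1 at 4.53 ± 0.20 and 5.59 ± 0.22. On 3 and 1 control counts at 3 weeks, Cd274 was at 3.66 and 6.60 and Parp14 at 5.97 and 3.75. These 3 differences did not pass (adjusted p = 0.138, 0.348 and 0.45). H2-D1 rose by 1.53 at 3 weeks and 0.74 at 24 h, a difference of 0.79 ± 0.18 that did not pass (adjusted p = 0.066). The difference between the 2 responses was called for 1 gene of 8516 (0.0117%), Gm26909, a B2 word holder, at −0.80 at 3 weeks and 0.04 at 24 h (difference −0.84 ± 0.16, adjusted p = 0.0478), with 1391 genes at an unadjusted p under 0.05 and 115 called by DESeq2. The B2 word holders had a median log2 fold change of 0.06 at 24 h, −0.11 at 1 week, −0.17 at 2 weeks and −0.30 at 3 weeks, and the Wdr31 word holders −1.18, −0.68, −0.85 and −1.51.

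At 1 and 2 weeks fewer genes were called, 62 at 1 week (0.728%; 56 higher, 0.658%, and 6 lower, 0.0705%) and 142 at 2 weeks (1.67%; 79 higher, 0.928%, and 63 lower, 0.74%). IFNγ replicate 3 of 1 week held 24.5% of the CT26 median total. Without libraries under 25% of that median, 68 genes were called at 1 week. Of the 1-week risers 98.2% were also higher at 3 weeks (55 genes), and of the 2-week risers 79.8% (63 genes), which are 18.8% and 21.5% of the 293. The difference between the 3-week and 2-week responses was called for 14 genes (0.164%), 9 with a higher value at 3 weeks (0.106%) and 5 with a lower one (0.0587%). Gbp3 rose by 6.85 at 3 weeks and 3.30 at 2 weeks (difference 3.56 ± 0.65, adjusted p = 0.0146), Usp18 by 3.81 against 1.54 and H2-T22 by 3.33 against 1.87, and Ifit1 was at 3.43 and 0.76 (2.68 ± 0.51, adjusted p = 0.00913). Ndufa4 fell by 1.11 at 3 weeks and 0.41 at 2 weeks (−0.70 ± 0.15, adjusted p = 0.0319), and Wdr31 by 1.71 against 0.85. With any replicate number left out 1 to 3 genes were called.

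**Figure D5:**
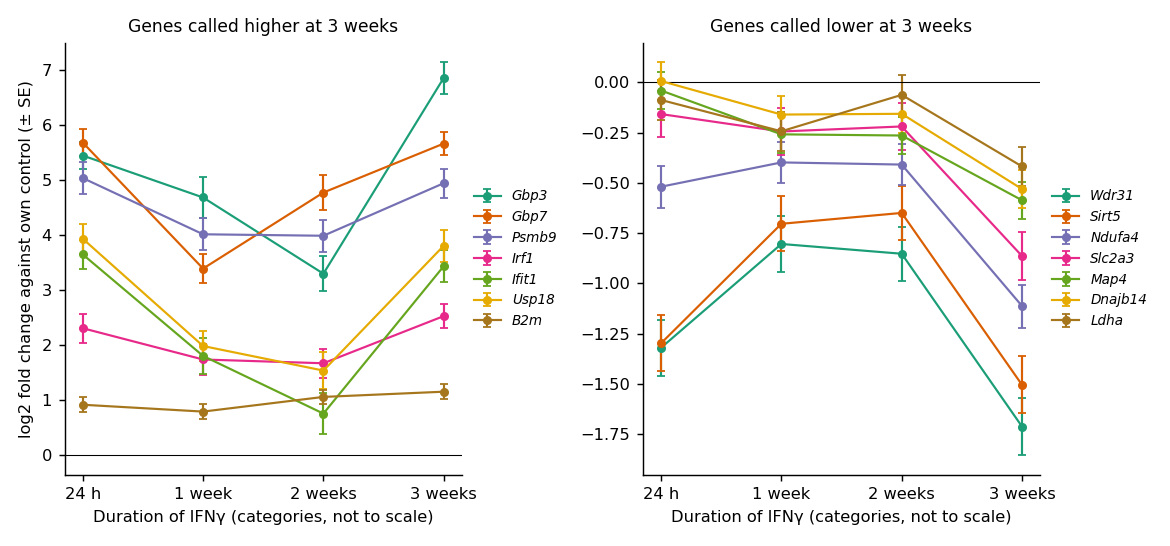
Log2 fold changes (± SE) against the control of the same week, in CT26 after 24 h and after 1, 2 and 3 weeks of IFNγ, for 7 genes called higher and 7 called lower at 3 weeks, each of the 4 durations from its own libraries. Gbp7 runs from 5.68 at 24 h through 3.39 and 4.77 to 5.66, and Wdr31 from −1.32 through −0.80 and −0.85 to −1.71.

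The 3-week controls were also compared with the controls at the start: 78 genes were called (0.916%), of which 49 were higher (0.575%) and 29 lower (0.341%). This comparison shares the 3-week controls with the one above, so the values are given side by side only. Gbp2 had drifted by 0.71 ± 0.39, B2m by 0.47 ± 0.13, Wdr31 by 0.12 ± 0.13 and Ndufa4 by −0.14 ± 0.10, none of them called. Psme2 was called in the drift at 0.44 ± 0.11 (adjusted p = 0.025) beside its rise of 1.69. Ybx1, a cold-shock domain protein, stood at 157, 290 and 174 CPM after IFNγ and at 124, 126 and 129 CPM in the 3-week controls (0.73 ± 0.20, adjusted p = 0.02), while the controls had fallen by 1.38 ± 0.19 on the log2 scale from the start, and against the 0-week control the sign was reversed (−0.65). Ybx1 did not pass without IFNγ replicate 2 (0.35, adjusted p = 0.53) or without any single control (0.71 to 0.74, adjusted p of 0.059 to 0.064).

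In YUMM2.1 cells, tested in their own fit, 3 weeks of IFNγ called 93 of 9589 genes (0.97%), 69 higher (0.72%) and 24 lower (0.25%). Of the 249 CT26 risers that could be tested there 55 were higher (22.1%, and 90.2% of the 61 YUMM2.1 risers tested in CT26), and of 308 fallers 12 were lower (3.9%, and 57.1% of 21). IFNγ replicate 3 of YUMM2.1 held 19.6% of that line's median total, and without it 67 genes were called higher and 2 lower there, of which 49 were higher and none lower in CT26 too. The 3-week responses of the lines differed for 11 genes (0.106%), 8 with a higher value in CT26 (0.0774%) and 3 with a lower one (0.029%). The median difference over all genes in this test was 0.10. With RLE factors 6 genes were called in each direction, and with DESeq2 10 in each, so the lean to CT26 depended on the scaling. Gbp3 rose by 6.85 in CT26 and 3.66 in YUMM2.1 (difference 3.28 ± 0.55, adjusted p = 0.000272), Gbp7 by 5.66 and 3.76 (1.97 ± 0.37), and Ifit1 was at 3.43 and 0.89 (2.58 ± 0.54). H2-D1, a B2 word holder, went the other way, 1.53 in CT26 and 2.93 in YUMM2.1 (−1.33 ± 0.22, adjusted p = 0.000272), with the limit on H2 alleles given above. Sirt5 was at −1.51 and −0.07 (−1.37 ± 0.22) and Ndufa4 at −1.11 and −0.16 (−0.88 ± 0.17, adjusted p = 0.00323). Psmb9 rose by 4.94 and 5.15, and the difference did not pass.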

How the data were processed

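CT26 and YUMM2.1 cells were profiled in 90 samples, 15 groups of 3 replicates per line. The authors deposited 1 table of whole-number counts per gene and sample, not normalized and not pooled. The submitters' processing notes name Salmon 0.13.1 and the build mm10, and the methods name import with tximport. The annotation behind the counts and any use of molecular identifiers are not given in the sources used here. The methods also state that outlier samples were discarded before the study's own analyses, without naming them, and all 45 CT26 samples were used here. Reads that match several genes can be assigned among them by such a tool, which bears on genes with shared 3′ sequence.

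Gene identifiers (53697) were matched to GENCODE M21 symbols on GRCm38, the build of mm10, and 53668 matched. Counts were analysed in R 4.3.3 with edgeR 4.0.16: filterByExpr by group, TMM, a quasi-likelihood fit over the 45 CT26 samples in 15 groups without covariates, and two-sided tests with Benjamini-Hochberg adjustment at 0.05. Standard errors were derived from the log2 fold change and the F statistic. YUMM2.1 was fitted alone, and all 90 samples were fitted for the difference between lines. CPM used TMM-scaled totals of each line, so levels of both lines were not set side by side. Genes at 0 in the controls were given a bound from 3 counts over the group, and those with 1 to 3 counts a ratio with a 95% interval from the exact binomial (Clopper-Pearson) method, which cover counting error only. Total counts of 295157 to 2183005 in the 6 libraries limit genes of a few CPM to single counts.

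The members and gene lists were chosen with earlier results of these data known. Named genes were, among called genes with a mean of at least 20 CPM whose groups did not overlap, the 15 with the largest rise and the 15 with the largest fall, up to 4 called members per list, genes that define the pathway, the 5 called genes of highest level in each direction, and the genes with the smallest p for the differences between responses. Other members of lists that the text names, such as Irf9, Socs1, Gbp9, Gbp5, Gbp6, Gbp10, Canx, Calr, Cdkn1a, Myc, Pdk1, Vegfa, Uqcrb and Samhd1, were chosen after their values were seen. Some genes that the rule names are not reported here. Promoter windows came from RefSeq (GRCm38.p6), and 229 of 293 higher and 217 of 323 lower genes had one. Shared sequence was measured on the GENCODE M21 transcripts. The fit was tested on simulated counts.

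Alternatives were DESeq2 1.42.0, library totals, RLE factors, no filter on low counts, fewer groups in the fit, the replicate block, each replicate or library left out, libraries under 25% of the median total left out, other controls, a minimum log2 change of 0.5 and, added after seeing the data, removal of genes sharing 3′ sequence.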

Additional observations from a re-analysis of the deposited data

Results flagged for a closer look

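The genes below are listed because their change after 3 weeks of IFNγ differed, by edgeR's test of the difference itself over all genes, from the change at another duration or in the other line. Values are differences of log2 fold changes with their adjusted p. Against the 24 h response in CT26, Gm26909 was lower by a difference of −0.84 (adjusted p = 0.0478).

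Against the 2-week response, the larger rises at 3 weeks were Gbp3 (3.56, adjusted p = 0.0146), Ifit1 (2.68, adjusted p = 0.00913), Usp18 (2.27, adjusted p = 0.0392), Sp100, a nuclear body protein (1.83, adjusted p = 0.00913), H2-T22 (1.45, adjusted p = 0.0392) and Isg20, an RNA exonuclease (1.38, adjusted p = 0.0392). The larger falls were Wdr31 (−0.86, adjusted p = 0.0444), Sirt5 (−0.86, adjusted p = 0.0444) and Ndufa4 (−0.70, adjusted p = 0.0319). The signs of the estimates were opposite for Ybx1 (1.95, from −1.22 at 2 weeks to 0.73), Anp32b, a histone chaperone (1.26, from −0.46 to 0.80), Wdr18 (0.96, from −0.76 to 0.20), Gm43558 (−1.59, from 0.84 to −0.75) and the tubulin Tubb6 (−0.80, from 0.23 to −0.57). Of these 5, Wdr18 was not called at 3 weeks, and Ybx1, Wdr18 and Gm43558 were called at 2 weeks. At 3 weeks without IFNγ replicate 2, Ybx1 (0.35), Anp32b (0.68) and Tubb6 (−0.45) did not pass, nor did Anp32b without control replicate 3 (0.72). Gm43558 did not pass without IFNγ replicate 1 (−0.65), IFNγ replicate 3 (−0.55) or control replicate 2 (−0.66), or with library totals (−0.53, adjusted p = 0.146).

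Against YUMM2.1, the larger rises in CT26 were Gbp3 (3.28, adjusted p = 0.000272), Spag9, a scaffold of stress kinases (3.14, adjusted p = 0.0334), Ifit3 (3.02, adjusted p = 0.00282), Ifit1 (2.58, adjusted p = 0.0105), Samd9l (2.30, adjusted p = 0.00526), Gbp7 (1.97, adjusted p = 0.00197), Gbp2 (1.46, adjusted p = 0.0486) and Shisa5 (1.13, adjusted p = 0.0476). Sirt5 (−1.37, adjusted p = 0.000272) and Ndufa4 (−0.88, adjusted p = 0.00323) fell in CT26 and were not called in YUMM2.1. H2-D1 rose less in CT26 (−1.33, adjusted p = 0.000272).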

How the results depend on the processing

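The count of 616 changed genes at 3 weeks moved by over 1.5 times when only the 2 compared groups (282) or only the 4 groups of 3 weeks (349) were fitted, against the mean of 4 control groups (1323), without IFNγ replicate 2 (259) and without control replicate 3 (397). Leaving out single libraries gave 259 to 680 genes, and leaving out a replicate number in every group 185 to 518. DESeq2 gave 568, RLE factors 581 and no filter on low counts 727. No filter on low counts also gave 133 genes for the control drift (78 in the report), 120 at 1 week (62), 172 for the difference from 24 h (1), 100 for the difference from 2 weeks (14), 186 in YUMM2.1 (93) and 40 for the difference between lines (11). DESeq2 gave 126 for the drift, and 115, 52 and 20 for the 3 differences. Library totals gave 0 and 31, removal of genes sharing 3′ sequence 3 and 8, and removal of libraries under 25% of the median total 48 and 36 for the differences from 24 h and 2 weeks. Leaving out a replicate number gave 13 to 27 for the drift, 37 to 55 at 1 week, 65 to 86 at 2 weeks, 105 to 249 at 24 h, 0 to 262 for the difference from 24 h, 1 to 3 for that from 2 weeks, 52 to 60 in YUMM2.1 and 4 to 6 between lines. Some of these fits held fewer samples or genes, and the cause of these shifts was not tested.

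With the replicate block 662 genes were called, and 4 for the difference from 24 h. The correlations of deviations between same-numbered libraries of the compared groups were 0.043, 0.132 and 0.222 for replicates 1, 2 and 3. The best correlations with another number were 0.0859, −0.0042 and −0.0244. Replicates 2 and 3 thus correlated best with their own number, and replicate 1 did not. Whether same-numbered libraries belong together is not stated by the labels, and the main fit did not pair them. Signs turned for Jak2 without IFNγ replicate 2 (−0.0935, in a range of −0.0935 to 0.555 over the fits that leave out a replicate), and against the 0-week control for E2f4 (−0.0377), Gm43558 (0.15), Wdr18 (−0.55) and Ybx1 (−0.65), the last 3 also against the mean of 4 control groups (0.20, −0.39 and −0.26). In the shallow IFNγ replicate 3, 1 count is several CPM, so values there for genes of a few CPM rest on single counts.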

Other observations

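The series also holds CT26 cells of 3 weeks that received fresh IFNγ, which the comparison above did not use, and their levels are given as means ± SD over 3 libraries without a test. Irf1 was at 75.6 ± 17.0 CPM without fresh IFNγ, 103 ± 12.3 CPM 2 h after it and 63.5 ± 5.34 CPM after 24 h, and Gbp2 at 260 ± 35.8, 342 ± 12.6 and 267 ± 21.8 CPM. Parp14 was at 21.0 ± 5.13, 22.1 ± 15.5 and 13.1 ± 3.999 CPM, and Cd274 at 8.14 ± 4.92, 15.2 ± 7.56 and 10.4 ± 2.51 CPM. Wdr31 was at 355 ± 26.0, 363 ± 64.5 and 327 ± 48.8 CPM and Ndufa4 at 586 ± 38.9, 650 ± 67.9 and 679 ± 86.0 CPM. At 1 week, Gbp2 stood at 29.9 ± 9.63 CPM without fresh IFNγ and at 404 ± 56.0 CPM 24 h after it. At 2 weeks it stood at 71.0 ± 2.04 and 430.1 ± 24.4 CPM. The 3-week libraries without fresh IFNγ were thus nearer in Gbp2 to libraries taken 24 h after a fresh dose than the 1-week and 2-week libraries were to theirs. Whether the cytokine or medium was last changed at a like interval before each harvest is not given in the sources used here, and its part was not tested.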
